A study of Mus musculus with 24 samples.

Results

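Glycolysis and the response to low oxygen were followed through 37 genes in maps of H3K9ac, a histone mark (acetyl groups on lysine 9 of histone H3) found at active promoters. The 37 genes are a fixed list: 2 glucose transporters, 15 glycolytic enzymes, 2 regulators of phosphofructokinase, 4 lactate enzymes and transporters, 3 pyruvate dehydrogenase kinases, 2 HIF alpha subunits, 2 HIF prolyl hydroxylases and 7 other genes of the hypoxia response. They were found by gene name among 21728 protein-coding genes of GENCODE vM21, and 32 of the 37 had an H3K9ac peak within 1 kb of a transcription start site (TSS) in all 12 libraries, as did 10761 of all protein-coding genes. The rule for the list uses no measured value, but the list was drawn up with earlier results of these data known.

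The libraries came from spheroids of 4T1, a mouse mammary carcinoma cell line, collected on day 5, and were made by ChIPmentation, in which Tn5 transposase tags the immunoprecipitated chromatin on the beads. Each of 4 groups held 3 libraries. The scramble group carried a non-targeting guide and grew with 75 µM palmitate. The CPT1a knockout group lacked the enzyme that admits long-chain fatty acids into mitochondria and grew with 75 µM palmitate. The CPT1a knockout + acetate group received 5 mM acetate, and its labels do not state whether palmitate was present. A figure legend of the paper describes its H3K9ac comparison of CPT1a inhibition with and without acetate as done in palmitate. The KAT2a knockout group lacked a histone acetyltransferase and grew with 75 µM palmitate. The knockouts were made with a doxycycline-inducible Cas9 delivered by lentivirus followed by puromycin selection, and the methods give a pair of guides per gene without saying which guide each library carried. Nothing in the labels states that the replicates were separate cultures, so p-values cover the spread between these libraries, which may be technical. In bulk spheroids, fewer cells carrying a mark and less of the mark per cell cannot be told apart.

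Glycolysis converts glucose to pyruvate in the cytosol. Lactate dehydrogenase turns the pyruvate into lactate for export, while the pyruvate dehydrogenase kinases hold pyruvate back from the mitochondrial acetyl-CoA pool. When oxygen is scarce, the prolyl hydroxylases no longer mark HIF alpha subunits for destruction, and the HIF dimer binds the short hypoxia response element in the promoters of many glycolytic genes, of Vegfa and of Car9. Acetyl-CoA is also the donor for histone acetylation, and KAT2a (GCN5) is among the enzymes that place the acetyl group on H3K9.

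The scramble libraries stood apart from the other 9 in the number and width of their peaks. They held 29176 to 34370 peaks against 16212 to 24639, and their median peak was 585 to 686 bp wide against 816 to 1147 bp. Their calling depth, the genome-wide background level implied by the deposited values, was 1.87 to 2.52 and overlapped the 0.554 to 1.91 of the others. The lowest depths were 0.554 in CPT1a knockout replicate 3 and 0.660 in CPT1a knockout + acetate replicate 2. No label gives a preparation or sequencing batch, so the scramble guide and whatever else set those 3 libraries apart cannot be told apart. The epithelial identity of the cells was visible in 7 of 8 epithelial markers (Epcam, Cdh1 and keratins among them) with a promoter peak in all 12 libraries. Of the marker genes of other cell types, all 3 endothelial genes and 4 of 5 immune genes had none in any library, while Cd68 had one in 2 libraries. Of 4 fibroblast genes, Col1a2 and Dcn had none in any library, while Pdgfra and Col1a1 had one in 12 and 11. The promoters of the targeted genes carried a peak in every library, with Cpt1a between percentiles 13.7 and 73.8 and Kat2a between 6.04 and 60.9 of the promoter ranking, which tests no coding-sequence edit. Kat2a ranked 6.04, 8.06 and 6.45 in scramble and 13.1 to 60.9 in the other 9 libraries.

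Fold enrichment was not scaled between libraries, so each promoter was described by its rank, the percentile of its highest fold enrichment among the 10761 genes of the same library. A rank of 90 means that 90% of those promoters had a lower enrichment. Promoter windows from RefSeq (GRCm38.p6, 250 bases before to 50 after a start) were matched for 33 of the 37 genes, leaving out Slc2a3, Ndrg1, Ero1l and Epas1. The windows shown are those of the 3 genes whose promoter rank passed the test in any comparison. Pfkl and Pfkm encode the liver and muscle forms of phosphofructokinase, the committed step of glycolysis, and Hif1a encodes the oxygen-regulated HIF subunit. They lie at chr10:78009758-78010057 on the minus strand, chr15:98092339-98092638 on the plus strand and chr12:73907617-73907916 on the plus strand. Capitals mark the hypoxia response element core, ACGTG or GCGTG, on either strand, so that the reverse complements CACGT and CACGC are marked too and the palindrome CACGTG holds overlapping matches.
Pfkl: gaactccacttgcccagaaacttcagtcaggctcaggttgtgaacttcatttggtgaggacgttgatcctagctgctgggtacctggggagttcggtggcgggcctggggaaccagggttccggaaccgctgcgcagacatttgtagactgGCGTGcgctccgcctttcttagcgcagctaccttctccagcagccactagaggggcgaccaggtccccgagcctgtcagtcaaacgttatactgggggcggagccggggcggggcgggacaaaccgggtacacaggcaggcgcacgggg
Pfkm: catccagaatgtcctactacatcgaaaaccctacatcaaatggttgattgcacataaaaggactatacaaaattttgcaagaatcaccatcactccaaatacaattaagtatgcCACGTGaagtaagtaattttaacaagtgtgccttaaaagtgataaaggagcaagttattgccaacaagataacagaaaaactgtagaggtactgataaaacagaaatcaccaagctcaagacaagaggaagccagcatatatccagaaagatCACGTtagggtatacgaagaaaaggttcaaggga
Hif1a: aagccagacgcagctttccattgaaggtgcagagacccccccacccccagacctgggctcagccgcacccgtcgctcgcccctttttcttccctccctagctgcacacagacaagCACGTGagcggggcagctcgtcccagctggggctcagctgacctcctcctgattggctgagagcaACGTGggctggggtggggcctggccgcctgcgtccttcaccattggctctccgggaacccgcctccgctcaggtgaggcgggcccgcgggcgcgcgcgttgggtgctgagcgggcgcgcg
The Pfkl window held 1 core, GCGTG at position -99 from the start. Hif1a held 3 matches, a CACGTG palindrome supplying those at -135 and -134 and the other lying at -70. Pfkm also held 3, from a palindrome at -136 and -135 and a match at 17. Of the 48 windows of the 33 genes, 79.2% held at least 1 core, beside 50.6% of 20061 windows of all protein-coding genes and 64.0% of 10924 windows of the ranked genes, those with such a peak in each of the 12 libraries. ACGTG was in 56.3% of the members' windows and 26.0% of the windows of the ranked genes, and GCGTG in 54.2% and 52.7%. The median GC content was 62.2% for the members and 61.3% for the ranked genes. Several of the listed genes are known as HIF targets, so these shares are a description of the list.

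Many of the glycolytic genes stood high in the promoter ranking, and a few stood near its bottom. Of the 32 genes ranked, 13 had a mean rank above 75, which is 40.6% of them, beside 18.9% of all 10761 genes, and 5 lay below 10, which is 15.6% beside 6.91%. Eno1 (enolase) ranked highest with a mean of 94.2. Its ranks were 99.2, 98.4 and 99.3 in scramble, 95.2, 95.7 and 88.7 in CPT1a knockout, 98.8, 96.4 and 63.9 with acetate, and 97.8, 98.7 and 98.5 in KAT2a knockout, so a single acetate library stood low. Pkm (pyruvate kinase) followed at 92.6, with 99.7, 99.3 and 92.3 in scramble, 98.6, 98.5 and 89.4 in CPT1a knockout, 98.1, 99.2 and 62.8 with acetate, and 99.2, 98.2 and 75.6 in KAT2a knockout. The same acetate library, replicate 3, was the lowest for both genes.

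Ldha, the lactate dehydrogenase subunit that favours lactate formation, averaged 92.1 and had the smallest pooled SD of the 13 genes above rank 75, 3.60 points. Its ranks were 84.4, 91.4 and 88.6 in scramble, 86.8, 92.2 and 96.1 in CPT1a knockout, 95.2, 89.3 and 95.8 with acetate and 93.4, 97.6 and 94.4 in KAT2a knockout. The KAT2a knockout libraries all lay above the scramble libraries, a difference of 7.01 points (pooled SD 2.92, n = 3 a group) that did not pass the limma test (adjusted p = 0.418). Slc16a1 (the lactate transporter MCT1) had a mean rank of 91.1, and Aldoa (aldolase), Ero1l (an endoplasmic reticulum oxidase), Tpi1 (triosephosphate isomerase), Egln3 (the prolyl hydroxylase PHD3) and Ddit4 (an inhibitor of mTOR signalling) lay between 84.6 and 80.2.

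The 5 genes with a mean rank below 10 were Pfkfb4, Eno2, Car9, Pfkfb3 and Pdk2. Pfkfb4, which makes the phosphofructokinase activator fructose 2,6-bisphosphate, had the lowest mean rank, 1.73. Its ranks were 4.21, 0.497 and 2.03 in scramble, 1.61, 1.91 and 3.01 in CPT1a knockout, 0.692, 1.12 and 0.748 with acetate and 1.22, 0.637 and 3.05 in KAT2a knockout. Eno2, the neuronal enolase, had ranks of 6.36, 3.74 and 1.84 in scramble, 1.42, 0.702 and 0.590 in CPT1a knockout, 2.26, 1.76 and 1.52 with acetate and 1.79, 0.678 and 0.943 in KAT2a knockout, so every library placed it near the bottom. Car9, a carbonic anhydrase at the cell surface, averaged 8.00, with 9.81, 10.6 and 11.99 in scramble, 8.29, 9.67 and 1.87 in CPT1a knockout, 2.22, 5.63 and 7.92 with acetate and 8.82, 7.85 and 11.2 in KAT2a knockout. The scramble libraries lay above those of CPT1a knockout and of acetate without overlap, by differences too small to pass the limma test (adjusted p = 0.363 and 0.294). Pfkfb3, the relative of Pfkfb4, averaged 8.28, and the pyruvate dehydrogenase kinase Pdk2 averaged 8.96. Some paralogues of one enzyme lay far apart in this ranking, as Eno1 and Eno2 did, and Pdk1, a kinase induced by HIF, averaged 49.1 where Pdk2 averaged 8.96. Others lay close together, as Hk1 and Hk2 did at 59.0 and 56.3, and as Pfkfb3 and Pfkfb4 did near the bottom.

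**Figure D1:**
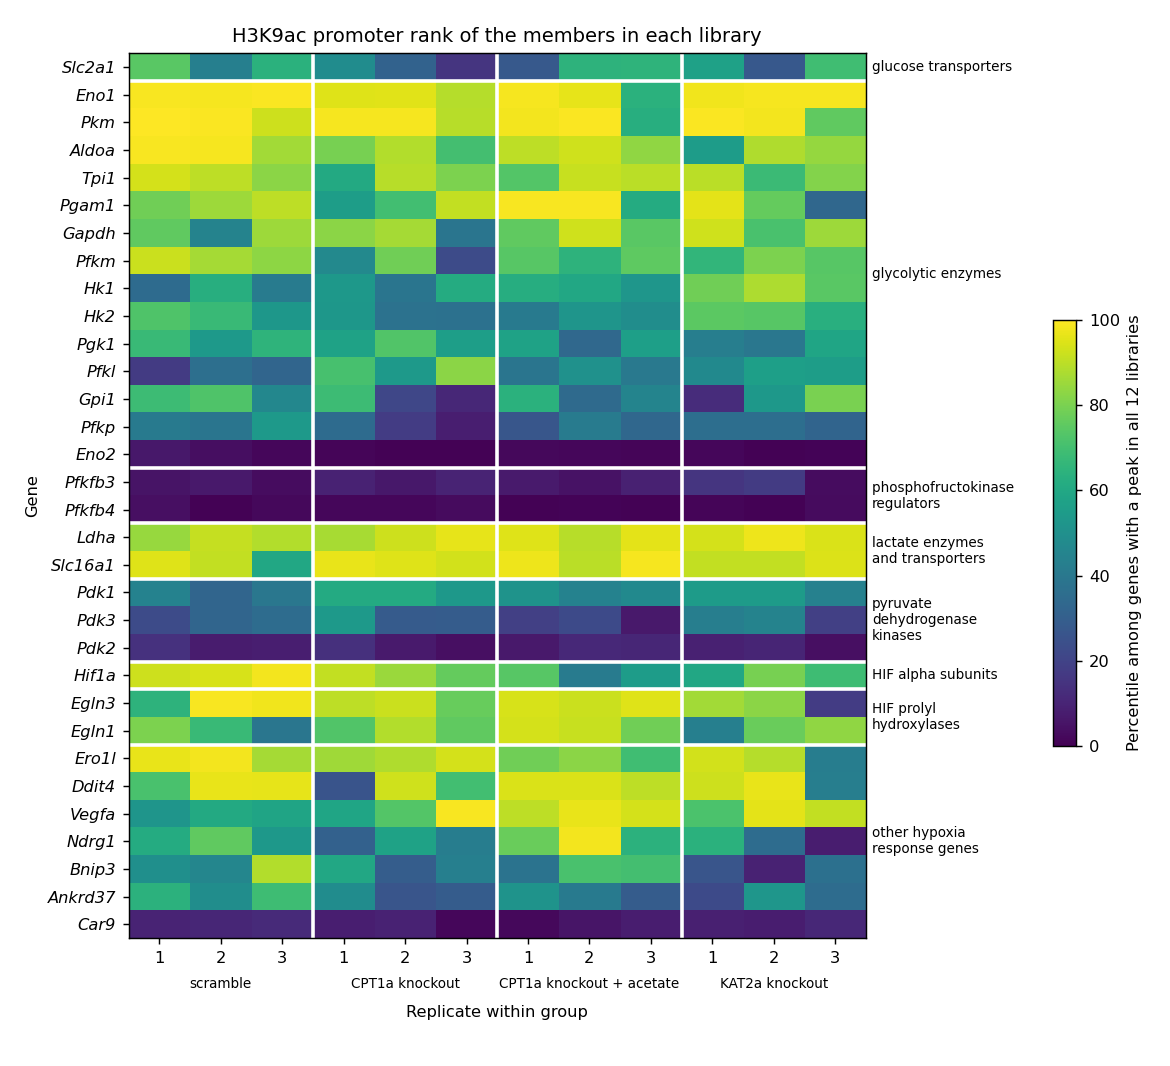
H3K9ac promoter rank (percentile, colour scale 0 to 100) of the 32 ranked genes, in rows grouped by role, against the 12 libraries in columns grouped by condition. Eno1, Pkm and Ldha are bright across nearly all libraries and Eno2, Pfkfb4, Pfkfb3, Pdk2 and Car9 are dark in every one.

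In the order of mean ranks, 29 of the 31 neighbouring pairs differed by less than the larger pooled SD of the pair, so neighbours should be read as tied. The median pooled SD within groups was 10.9 points for the members and 11.9 points for all genes. Gpi1 (glucose-6-phosphate isomerase) and Ddit4 were the least reproducible, with pooled SDs of 25.0 and 23.9 points, and Ddit4 fell to 25.9 in CPT1a knockout replicate 1 and 42.6 in KAT2a knockout replicate 3 while 8 of the other 10 libraries lay above 75.

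Only 5 of the 37 genes lacked a promoter peak in at least 1 library. Slc2a3 (the high-affinity glucose transporter GLUT3), Slc16a3 (the lactate exporter MCT4) and Epas1 (HIF-2 alpha) had none in any of the 12 libraries, a share of 8.11% beside 45.1% of all protein-coding genes. Slc2a3 nevertheless lay near a strong region at chr6:122809328-122813035 (mm10), upstream of the gene, which was called in all 12 libraries with a fold enrichment of up to 33.7 and overlaps the start of Gm5112, a gene model of unsettled type.

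Aldoc, the brain form of aldolase, was called in all 3 scramble and all 3 KAT2a knockout libraries, in CPT1a knockout replicate 2 alone, and in acetate replicates 2 and 3. The fold enrichments were 4.03, 5.69 and 3.80 in scramble, 6.19 in CPT1a knockout, 4.99 and 5.27 with acetate, and 5.65, 8.54 and 7.29 in KAT2a knockout. The peaks were 257 to 723 bp wide. Ldhb, the lactate dehydrogenase subunit that favours pyruvate formation, was called in no scramble or acetate library, in CPT1a knockout replicate 1 at a fold enrichment of 3.40, and in all 3 KAT2a knockout libraries at 4.73, 8.44 and 5.46. A promoter called in 3 of 3 KAT2a knockout and 0 of 3 scramble libraries occurred in 152 of 21728 genes, or 0.700%, with Ldhb as the single listed gene. The opposite pattern occurred in 12 genes and none of the list. An exact permutation test of 3 against 3 libraries cannot give a p below 0.1, and the Ldhb peaks were 278, 879 and 349 bp wide.

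Each knockout group was then compared with scramble, and the acetate group with CPT1a knockout, to ask whether loss of CPT1a or KAT2a, or acetate, altered the mark at these promoters. The tests were limma fits of normal scores of the ranks across all 10761 genes, with Benjamini-Hochberg adjustment at 0.05. The first 3 comparisons share the scramble libraries and are not independent of one another.

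In CPT1a knockout against scramble, 2 of the 32 genes passed: Pfkl rose and Pfkm fell. Over all genes 10.6% passed, so calls were no more frequent in the list than in the genome. The ranks of Pfkl were 17.5, 36.4 and 32.7 in scramble and 70.7, 54.3 and 82.6 in CPT1a knockout, with 39.0, 50.7 and 40.3 with acetate and 47.5, 56.4 and 55.6 in KAT2a knockout. All 9 libraries outside scramble lay above the scramble libraries. The difference between CPT1a knockout and scramble was 40.3 points (pooled SD 12.3; exact permutation p = 0.1, the smallest possible), or 1.11 ± 0.27 (SE) in normal scores with an adjusted p of 0.0190. The differences of 24.3 points for KAT2a knockout and 14.5 for acetate did not pass the limma test (adjusted p = 0.174 and 0.388). The normal-score difference stayed between 0.78 and 1.32 in all 19 alternatives. The Pfkl call was lost with calling depth as a covariate (adjusted p = 0.143), without the libraries of calling depth under 1 (0.0741), without scramble replicate 1 (0.0866) and without CPT1a knockout replicate 3 (0.0643).

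The Pfkm ranks were 92.1, 86.6 and 82.8 in scramble, 47.2, 78.5 and 22.7 in CPT1a knockout, 73.9, 64.7 and 75.4 with acetate and 65.8, 80.2 and 73.9 in KAT2a knockout. The 3 CPT1a knockout libraries were spread widely, yet all lay below scramble, a mean difference of -37.7 points (pooled SD 20.1; limma adjusted p = 0.0471). The call was lost when any 1 of 11 of the 12 libraries was left out, CPT1a knockout replicate 2 being the exception, with adjusted p between 0.0518 and 0.177. The peak behind it lies at chr15:98090491-98094918, where Pfkm has an upstream start, and in all 12 libraries it also lay within 1 kb of a TSS of Senp1, a SUMO protease gene. At the downstream Pfkm start, chr15:98108466, a separate peak was called in every library at a mean rank of 10.1, with 16.9, 8.60 and 15.7 in scramble and 7.70, 2.15 and 17.2 in CPT1a knockout, where the groups overlapped. The value for Pfkm is therefore that of a peak shared with Senp1. Ankrd37, a hypoxia-induced gene, shared its peak with Lrp2bp in the same way, and no other gene of the 34 with a promoter peak had such a partner in every library.

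The remaining phosphofructokinase form, Pfkp (platelet type), ranked 40.7, 38.7 and 54.0 in scramble and 35.0, 17.8 and 8.51 in CPT1a knockout without overlap, a difference of -24.0 points with an adjusted p of 0.0725. Pfkp passed at an equal calling depth (limma adjusted p = 0.0319) and when ranked by −log10 p (0.00721).

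In KAT2a knockout against scramble, 0 of the 32 genes passed the limma test on ranks, beside a background of 3.84%, and 9 had an unadjusted p under 0.05, beside 2332 of all 10761 genes. Hif1a and Hk1 had the smallest adjusted p. The Hif1a ranks were 92.4, 94.1 and 98.4 in scramble, 59.9, 79.4 and 68.8 in KAT2a knockout, 90.9, 84.8 and 76.2 in CPT1a knockout and 73.9, 41.6 and 55.2 with acetate. All 9 libraries outside scramble lay below the scramble libraries. The difference was -25.6 points in KAT2a knockout (adjusted p = 0.0605) and -11.0 in CPT1a knockout (adjusted p = 0.207). Hk1, a hexokinase that starts glycolysis at the mitochondrial surface, ranked 34.8, 62.8 and 41.5 in scramble and 78.2, 87.7 and 74.5 in KAT2a knockout, which was 33.8 points higher with no overlap (adjusted p = 0.0676). Both passed in KAT2a knockout at an equal calling depth (limma adjusted p = 0.0211 for Hif1a and 0.0418 for Hk1) and when ranked by −log10 p (0.00175 and 0.0142). Bnip3, a mitophagy receptor, had the largest rank difference of this comparison. Its ranks were 49.8, 46.0 and 88.7 in scramble and 26.4, 9.57 and 36.9 in KAT2a knockout, without overlap. The difference of -37.2 points did not pass (limma adjusted p = 0.0942), but it passed at an equal calling depth (0.0285) and when ranked by −log10 p (0.00488).

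In CPT1a knockout + acetate against scramble, Hif1a was the 1 gene of the 32 that passed, beside a background of 5.92%. It fell by 38.0 points (pooled SD 11.7), or -1.52 ± 0.34 (SE) in normal scores, with an adjusted p of 0.0196. The normal-score difference stayed between -1.75 and -1.24 in all 19 alternatives. The call was lost with calling depth as a covariate (adjusted p = 0.103), without the libraries of calling depth under 1 (0.0820), and without scramble replicate 3, acetate replicate 2 or acetate replicate 3 (0.0817, 0.0938 and 0.0648). The width of its strongest promoter peak did not pass (centred log2 difference 0.25 ± 0.22 (SE), adjusted p = 0.479), with values of 4092, 2283 and 3399 bp in scramble and 3645, 2644 and 3314 bp with acetate.

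Vegfa, the angiogenic ligand, had the largest uncalled difference in that comparison. Its ranks were 52.2, 60.7 and 58.3 in scramble, 89.9, 96.6 and 93.4 with acetate, 71.7, 95.8 and 90.6 in KAT2a knockout and 58.7, 73.1 and 99.2 in CPT1a knockout. The acetate and KAT2a knockout libraries lay above every scramble library, by 36.3 and 29.0 points (adjusted p = 0.102 and 0.220). When genes were ranked by −log10 p in place of fold enrichment, Vegfa passed in all 3 comparisons with scramble, with normal-score differences of 1.13 in CPT1a knockout, 0.94 in KAT2a knockout and 1.30 with acetate. That ranking called 12, 7 and 4 of the 32 genes in CPT1a knockout, KAT2a knockout and acetate, where fold enrichment called 2, 0 and 1. The share of all genes called under that ranking is not given here, so these counts cannot be set against a background. Among the added calls under that ranking, Aldoa fell by 1.14 and 1.17 in CPT1a and KAT2a knockout, Hif1a fell in both knockouts and Ero1l fell in all 3 comparisons. Hif1a with acetate passed under both rankings. The strongest Aldoa peak by fold enrichment lay at one cluster of starts in 9 libraries and at another start in CPT1a knockout replicate 3, acetate replicate 3 and KAT2a knockout replicate 1. In 9 of 12 libraries that peak also lay within 1 kb of a TSS of Fam57b, so the Aldoa values do not all come from 1 promoter of its own.

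**Figure D2:**
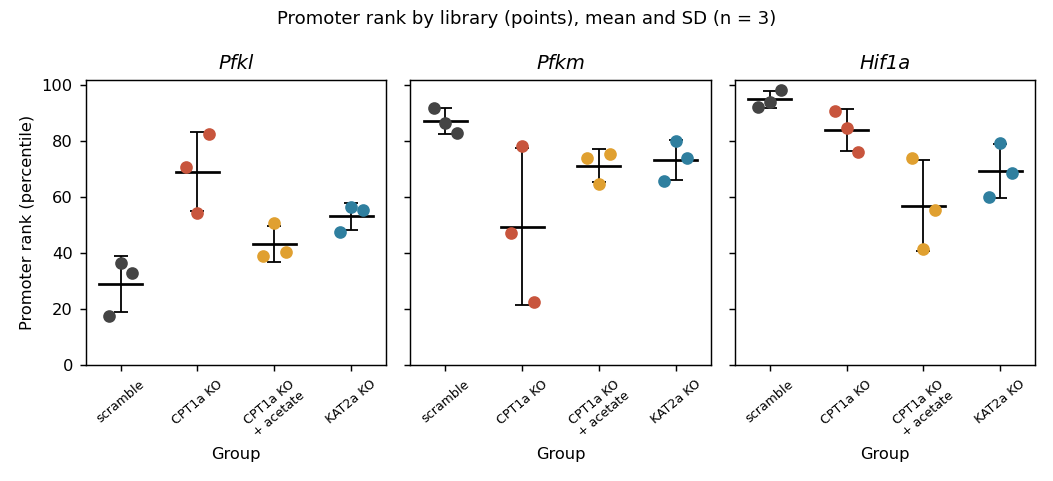
Promoter rank (percentile, y axis) of Pfkl, Pfkm and Hif1a in the 4 groups (x axis), with 1 point per library, the mean as a horizontal line and the SD as an error bar (n = 3). The scramble libraries lie below the other 9 for Pfkl, between 17.5 and 36.4, and above them for Hif1a, between 92.4 and 98.4.

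With acetate set against CPT1a knockout, 0 of the 32 genes and 0 of all 10761 genes passed on rank, a background of 0%, and 4 of the 32 had an unadjusted p under 0.05, beside 999 of all genes. Ndrg1, a stress-induced gene, gave the largest difference at 36.2 points, with 77.2, 98.4 and 64.1 against 31.0, 57.4 and 42.6. Pfkl moved by -25.8 points and Hif1a by -27.0 points, each without overlap and with the exact permutation p at its minimum of 0.1. The smallest adjusted p of the list was 0.450.

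Ranks that did not overlap between groups were about as frequent in the list as among all genes for the comparisons with scramble. They occurred in 10 of 32 genes (31.3%) for CPT1a knockout beside 30.9% of all genes, in 9 (28.1%) for KAT2a knockout beside 29.3%, and in 9 (28.1%) for acetate beside 32%. For acetate against CPT1a knockout they occurred in 9 of 32 genes (28.1%) beside 14.2%: Eno2, Egln3 and Ndrg1 lay above, and Pfkl, Pfkfb4, Pdk1, Pdk3, Hif1a and Ero1l below. The median change over the 32 genes was -0.40 normal-score units in CPT1a knockout against scramble, -0.25 in KAT2a knockout and -0.19 with acetate, while the medians of all genes were 0.01, 0.00 and 0.00. In percentile points the medians of the list were -3.64, -4.46 and -1.91. By library, the median rank of the 32 genes overlapped between groups. It was 68.2, 65.3 and 61.8 in scramble and 58.1, 65.5 and 54.7 in CPT1a knockout. With acetate it was 68.5, 64.7 and 62.2, and in KAT2a knockout 58.5, 69.7 and 57.1. In CPT1a knockout, 22 of the 32 genes ranked lower (68.8% beside 49.5% of all genes), among them 11 of 14 glycolytic enzymes and 6 of 7 other hypoxia genes, whose median change was -17.3 points. In KAT2a knockout 21 were lower, with a median of -19.0 points over those 7 hypoxia genes. With acetate 19 were lower, and the same 7 genes had a median of -1.69 points. For Ankrd37 and Bnip3 the differences in CPT1a knockout were -26.0 and -17.3 points, and neither passed the test (adjusted p = 0.127 and 0.395). Both passed when ranked by −log10 p (limma adjusted p = 0.0153 and 0.0249). The mean ranks of the lactate genes Ldha and Slc16a1 were both higher than in scramble in CPT1a knockout, KAT2a knockout and acetate, with medians of 8.39, 8.65 and 9.34 points, and neither gene passed. The Slc16a1 ranks were 95.2, 90.6 and 59.8 in scramble and 89.8 to 98.5 in the other 9 libraries. Only scramble replicate 3 lay below the others.

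**Figure D3:**
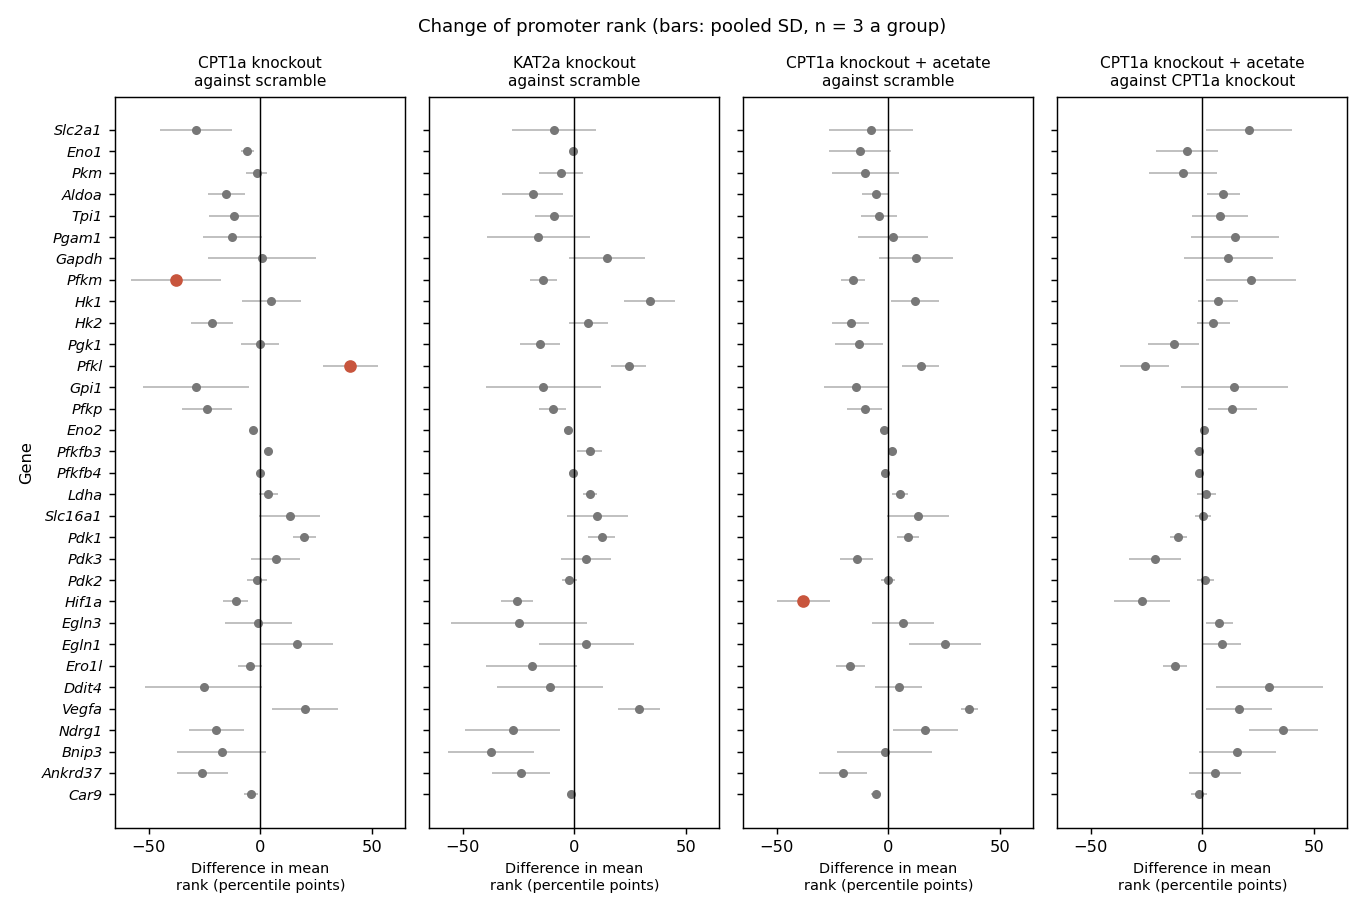
Difference in mean promoter rank (x axis, percentile points) for each of the 32 genes (y axis) in the 4 comparisons, with the pooled SD as a horizontal bar (n = 3 a group) and red points for limma adjusted p under 0.05. Red points are Pfkl and Pfkm in CPT1a knockout and Hif1a with acetate, and most points of the CPT1a knockout panel lie left of 0.

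The width of the strongest promoter peak gave a second measure. Library medians over all genes lay between 1443 bp (CPT1a knockout replicate 3) and 2886 bp (scramble replicate 1), so log2 widths were centred on each library's median. Without centring, the median gene changed by -0.38, -0.16 and -0.26 (log2) against scramble in CPT1a knockout, KAT2a knockout and acetate. With centred widths of single peaks, all width calls in the list were increases. The counts were 3 of 32 genes in CPT1a knockout, beside a background of 14.7%, 4 in KAT2a knockout, beside 12%, 2 with acetate, beside 9.97%, and 0 for acetate against CPT1a knockout, beside 0%, with 3 of the 32 at an unadjusted p under 0.05, beside 498 of all genes. Over all genes the CPT1a knockout calls were split between 804 wider and 780 narrower, and uncentred widths turned this into 148 and 2696. In the list, uncentred widths called Pfkfb3 wider (1.21) and Pfkm and Tpi1 narrower (-0.74 and -0.91) in CPT1a knockout. With calling depth as a covariate, Pfkm was narrower in CPT1a knockout, KAT2a knockout and acetate (-0.50, -0.49 and -0.49). Ero1l was called narrower in the same 3 comparisons by the summed length of promoter peaks (-0.30, -0.35 and -0.31) and with peaks within 500 bp merged (-0.40, -0.46 and -0.45). All other calls of the list under those settings were increases. Ddit4 was wider in the same 3 comparisons, summed (0.52, 0.35 and 0.31) and merged (0.52, 0.34 and 0.37). Vegfa and Pfkl were wider in CPT1a knockout and acetate under both settings. Pfkfb4 was wider only when merged, by 1.55 in CPT1a knockout and 1.52 in KAT2a knockout.

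Pfkfb3 had the largest centred increases of single peaks in the list in CPT1a knockout and KAT2a knockout, though not with acetate. Its strongest promoter peak measured 581, 431 and 445 bp in scramble, 1470, 1622 and 579 bp in CPT1a knockout, 804, 621 and 651 bp with acetate, and 1585, 1981 and 1591 bp in KAT2a knockout. The KAT2a knockout peaks were all longer than any scramble peak, and CPT1a knockout replicate 3, the shallowest library, fell within the scramble range before centring. The centred log2 difference was 1.59 ± 0.23 (SE) in CPT1a knockout (adjusted p = 0.00196) and 1.98 ± 0.23 in KAT2a knockout (adjusted p = 0.00111), and 0.76 ± 0.23 with acetate, which did not pass (adjusted p = 0.0573). Acetate against CPT1a knockout gave -0.83 ± 0.23, with an adjusted p of 0.850. The peak lies at chr2:11500453-11502574, at an internal start of the gene on the minus strand, and the rank of Pfkfb3 stayed between 3.48 and 17.5 throughout. The calls of Pfkfb3 in both knockouts were kept under all 18 alternatives, although merging peaks within 500 bp brought the differences down to 0.42 and 0.50. With acetate, Pfkfb3 passed by the summed length of promoter peaks (0.70, limma adjusted p = 0.0115). It also passed there with calling depth as a covariate (0.88, 0.0485) and without the libraries of calling depth under 1 (0.71, 0.0406).

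Egln1, the main oxygen-sensing prolyl hydroxylase (PHD2), measured 3093, 2814 and 1438 bp in scramble, 3904, 4185 and 3291 bp in CPT1a knockout, 4719, 2906 and 4370 bp with acetate and 4575, 4743 and 4013 bp in KAT2a knockout. Centred log2 differences were 1.08, 1.00 and 1.08 for CPT1a knockout, acetate and KAT2a knockout (adjusted p = 0.00943, 0.0161 and 0.0107). Hk1 measured 4058, 1765 and 2081 bp in scramble and 2431 to 3694 bp in the other 9 libraries, with differences of 0.61, 0.67 and 0.68 in the same order (adjusted p = 0.0377, 0.0353 and 0.0305). Both were cut into several peaks in scramble: Egln1 had 2 promoter peaks in all 3 scramble libraries and 1 in 8 of the other 9, and Hk1 had 2 in scramble replicates 2 and 3 and 1 in the other 10 libraries. After peaks within 500 bp were merged, the Egln1 differences were 0.05, 0.08 and 0.04 and those of Hk1 were -0.06, -0.08 and 0.16, none past the test. By the summed length of promoter peaks, Egln1 still passed in CPT1a knockout (0.24, limma adjusted p = 0.0470) and with acetate (0.30, 0.0245), and Hk1 in KAT2a knockout (0.27, 0.0242). The Hk1 calls were also lost without scramble replicate 2 or 3 (adjusted p = 0.102 and 0.112 in CPT1a knockout, 0.0736 and 0.0969 in KAT2a knockout, 0.0836 and 0.109 with acetate). Among all 18 alternatives, the Hk1 call was lost under 7 for KAT2a knockout, 14 for acetate and 15 for CPT1a knockout. The Egln1 call with acetate was lost without acetate replicate 1 or 3 (adjusted p = 0.0651 and 0.0546).

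Eno2 passed in KAT2a knockout, with 620, 468 and 469 bp in scramble and 1549, 1706 and 961 bp in KAT2a knockout (log2 difference 1.56 ± 0.42 (SE), adjusted p = 0.0342). Leaving out any 1 library of either group lost the call, with adjusted p between 0.0532 and 0.105. In CPT1a knockout its peaks were 1166, 1052 and 206 bp wide, and in the acetate group 1302, 653 and 1440 bp, which did not pass. With calling depth as a covariate, Eno2 passed in all 3 comparisons with scramble, by 2.11 in KAT2a knockout, 1.44 in CPT1a knockout and 2.01 with acetate (limma adjusted p = 0.00301, 0.0151 and 0.00602). Without the libraries of calling depth under 1 it also passed in all 3, by 1.56, 1.31 and 1.54 in the same order (0.000972, 0.00374 and 0.00382). The glycolytic enzyme gene Tpi1 measured 6476, 2808 and 3009 bp in scramble and 2199, 2137 and 1749 bp in CPT1a knockout, a centred log2 difference of -0.54 that did not pass (adjusted p = 0.0736). The uncentred difference of -0.91 did (limma adjusted p = 0.0366).

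**Figure D4:**
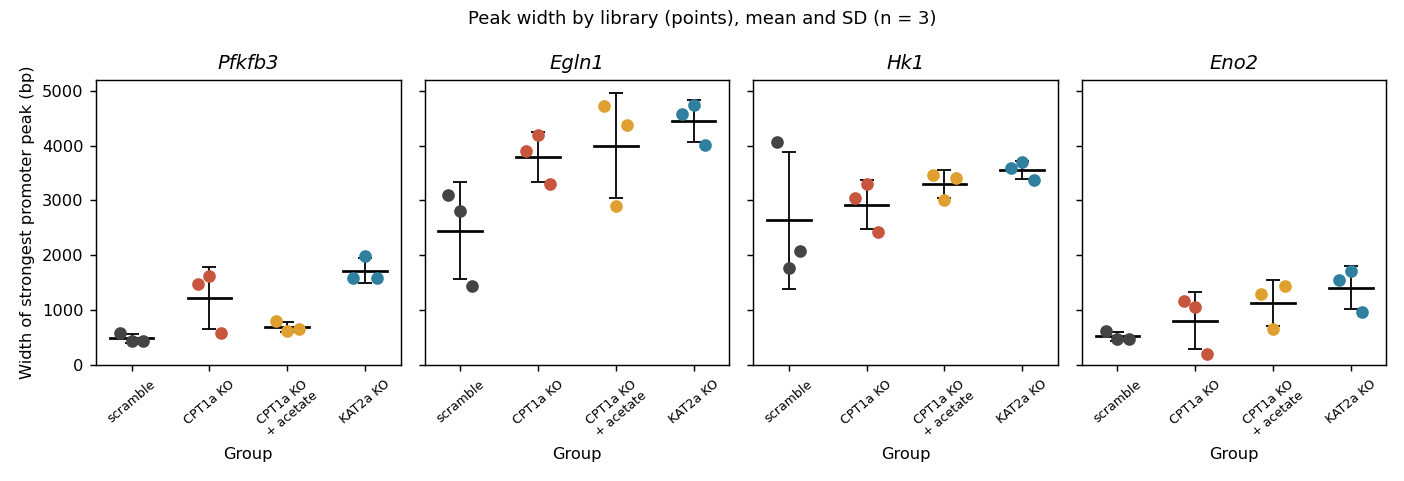
Width in bp (y axis, from 0, not centred) of the strongest promoter peak of Pfkfb3, Egln1, Hk1 and Eno2 in the 4 groups (x axis), with 1 point per library, the mean as a horizontal line and the SD as an error bar (n = 3). The KAT2a knockout peaks of Pfkfb3, at 1585 to 1981 bp, lie above the scramble peaks at 431 to 581 bp, while for Hk1 a scramble library of 4058 bp lies above all others.

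The position of the summit within the strongest promoter peak was also measured. Over all genes the median distance from the summit to the nearest TSS of the gene was 477 to 527 bp in the scramble libraries and 261 to 316 bp in the other 9, and over the 32 genes it was 451 to 485 bp and 246 to 322 bp. The summit lay farther from the TSS in every scramble library than in every compared library for 16 of the 32 genes in CPT1a knockout, beside 63.8% of all genes, for 13 in KAT2a knockout, beside 52.8%, and for 15 with acetate, beside 46.9%. Against all 9 other libraries at once the count was 12 of 32, or 37.5% beside 38.0% of all genes.

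Pfkl was an example. Its summit was 988, 865 and 890 bp downstream of the start in scramble, 131, 136 and 150 bp in CPT1a knockout, 133, 183 and 674 bp with acetate and 881, 219 and 150 bp in KAT2a knockout. The rank and the summit of Pfkl both separated CPT1a knockout from scramble, and the part of one in the other was not tested. The Hif1a summit lay 1035, 1125 and 1120 bp downstream in scramble and 313 to 844 bp downstream in the other 9 libraries. At Slc16a1 it lay 830, 836 and 1107 bp downstream in scramble and 256 to 347 bp in the others, while the ranks overlapped between groups. Slc2a1 (GLUT1, the main basal glucose transporter) had its summit at 62, 58 and 17 bp in CPT1a knockout, against 570, 595 and 713 bp in scramble, 552, 493 and 551 bp with acetate and 568, 551 and 549 bp in KAT2a knockout. The Slc2a1 ranks of 48.6, 31.3 and 15.2 in CPT1a knockout overlapped those of scramble, 74.3, 43.3 and 63.8, and did not pass (adjusted p = 0.166). Pfkm went the other way, from 25, -157 and 0 bp in scramble to 339, 431 and 393 bp in CPT1a knockout.

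**Figure D5:**
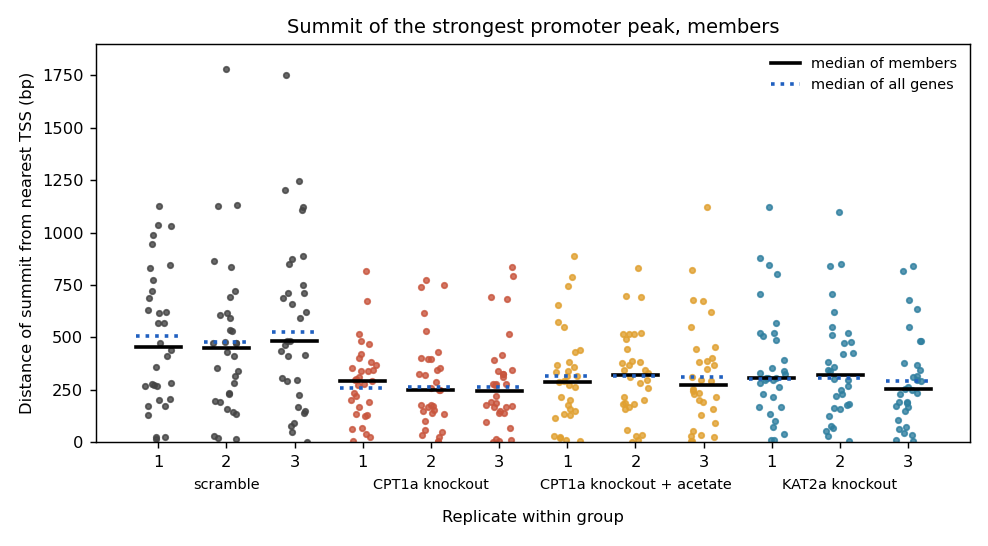
Distance in bp (y axis) between the TSS and the summit of the strongest promoter peak for the 32 genes (points) in each library (x axis), with solid lines for the median of the 32 genes and dotted lines for the median of all 10761 genes. Both medians lie between 451 and 527 bp in scramble and between 246 and 322 bp in the other 9 libraries.

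Outside protein-coding promoters, 78 regions were called in or within 10 kb of the 37 genes. Of these, 36 (46.2%) were called in a single library and 6 (7.69%) in all 12, beside 48.9% and 8.73% of 24336 such regions of the genome. The 6 constant regions included chr4:119126049-119127712 inside Slc2a1, chr10:62299550-62301695 inside Hk1 and chr12:54191243-54193690 inside Egln3, at fold enrichments of up to 10.4, 16.5 and 16.0. A region near Gpi1, chr7:34232094-34235287, reached 34.1 and lies at the starts of a pair of noncoding genes. No region near the list was called in all 9 libraries outside scramble and absent from scramble, beside 9 of the 24336, and 2 of the 78 were called in the 3 scramble libraries alone, near Gpi1 and Eno2, beside 401 of the 24336. The number near the list was lowest in CPT1a knockout replicate 3, at 8, and highest in scramble replicate 1, at 53, the libraries with the lowest and the highest calling depth.

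Other genes of the pathways, from lists that do not overlap the 37, were mostly marked as well. Among 20 further glycolysis genes, 11 had a promoter peak in every library. In CPT1a knockout 1 of the 11 passed on rank, beside 10.6% of all genes. This was Gpd2 (the mitochondrial glycerol-3-phosphate dehydrogenase), which rose from 47.5 ± 22.6 (SD, n = 3) to 87.3 ± 3.18 (limma adjusted p = 0.0296). None of 9 ranked genes of pyruvate entry into mitochondria and none of 12 ranked genes of the HIF pathway passed on rank in any comparison, and Pdk4 and Arnt2 had no promoter peak in any library. The shares of all genes against scramble were 10.6% in CPT1a knockout, 3.84% in KAT2a knockout and 5.92% with acetate. Of 7 pentose phosphate genes, 1 passed in CPT1a knockout, beside the same 10.6%. G6pdx, the entry enzyme, fell there from 66.7 ± 6.81 to 29.4 ± 5.00 (limma adjusted p = 0.0230).

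The largest of these lists held 29 other hypoxia targets, of which 21 were ranked. In CPT1a knockout 1 rose and 2 fell, beside the background of 10.6%, in KAT2a knockout 2 fell, beside 3.84%, and with acetate 1 rose and 2 fell, beside 5.92%. The median rank difference over the 21 genes was -0.29 points in CPT1a knockout with 11 lower, -2.37 in KAT2a knockout with 11 lower, and 2.42 with acetate with 8 lower, where the 7 hypoxia genes of the main list had -17.3, -19.0 and -1.69. Gbe1, the glycogen branching enzyme, fell from 74.7 ± 6.26 (SD, n = 3) in scramble to 31.2 ± 4.19 in CPT1a knockout, 28.5 ± 5.46 in KAT2a knockout and 35.7 ± 5.11 with acetate (limma adjusted p = 0.00669, 0.0137 and 0.0177). Bnip3l, the mitophagy receptor related to Bnip3, fell from 63.5 ± 5.17 to 24.0 ± 7.21, 27.1 ± 7.82 and 10.6 ± 2.87 (adjusted p = 0.00898, 0.0268 and 0.00244). Both genes were lower in all 3 comparisons, which share the scramble libraries. The genes that rose were Kdm4b, a histone demethylase, in CPT1a knockout (18.6 ± 4.05 to 48.6 ± 3.84, adjusted p = 0.0234) and Mif, a cytokine, with acetate (33.7 ± 14.6 to 80.3 ± 5.53, adjusted p = 0.0475). By width, 1 gene of the HIF pathway was called wider in each comparison with scramble. Of the other hypoxia targets, 1 was wider and 1 narrower in CPT1a knockout, 1 wider in KAT2a knockout and 3 wider with acetate. Of the genes of pyruvate entry, 1 was wider and 1 narrower in each knockout and 1 narrower with acetate, and the glycolysis and pentose phosphate lists had 0 width calls. By width, 14.7% of all genes passed in CPT1a knockout, 12% in KAT2a knockout and 9.97% with acetate. Acetate against CPT1a knockout gave 0 limma calls by rank or width in any of these lists, and over all 10761 genes 999 had an unadjusted p under 0.05 by rank.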

How the data were processed

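H3K9ac ChIPmentation gave 12 peak lists, 3 in each of 4 groups taken from the labels, and 12 input samples were not analysed here. The authors trimmed and aligned reads to mm10 and called peaks per sample, with Bowtie2, SAMtools, deepTools and MACS2 named in the submitters' processing notes and BWA in the methods. A Drosophila spike-in described in the methods was not used here. The deposited columns used were the fold enrichment (a ratio of sample to background at the summit) and the −log10 p of each peak, and the deposited −log10 q and score columns served only as a filter and a format check. No read counts or library depths were given, so depth was described by the background level implied by the deposited fold enrichment and −log10 p, and no counting interval was computed.

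Peaks within 1000 bp of a GENCODE vM21 start were assigned to protein-coding genes, and genes so marked in all 12 libraries were ranked within each. Normal scores of the ranks and centred log2 widths were each fitted over the 12 libraries with limma 3.58.1 in R 4.3.3, with Benjamini-Hochberg adjustment over 10761 genes at 0.05. Single ranks were compared by a two-sided exact permutation test, whose smallest p for 3 against 3 is 0.1. The fits were tested on simulated data. The members and lists were chosen with earlier results of these data known. Values in every library were to be given for genes called by limma, genes called in some libraries and the 3 highest and lowest mean ranks. Hk1 and Hif1a in KAT2a knockout, Pfkp, Vegfa, Ndrg1, Bnip3, Ankrd37, Aldoa, Ero1l, Tpi1, Slc16a1 and Slc2a1 were added after their values were seen. Some genes of the further lists are not reported here.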

Additional observations from a re-analysis of the deposited data

How the results depend on the processing

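The number of the 32 genes called by rank, which was 2 in CPT1a knockout, 0 in KAT2a knockout and 1 with acetate against scramble, became 12, 7 and 4 when promoters were ranked by −log10 p and 4, 4 and 2 at an equal calling depth. It became 0 in CPT1a knockout and 0 with acetate when calling depth was a covariate or when libraries with a calling depth under 1 were left out, a setting chosen after seeing the data. Leaving out 1 library gave 0 to 2 calls in CPT1a knockout, 0 to 0 in KAT2a knockout and 0 to 2 with acetate. The number called by width, 3 in CPT1a knockout, 4 in KAT2a knockout and 2 with acetate, became 7 in CPT1a knockout and 7 with acetate for the summed length of promoter peaks, 12 and 6 with peaks within 500 bp merged, and 1 in KAT2a knockout and 0 with acetate without centring. With acetate it was 5 with calling depth as a covariate and 4 without the libraries of calling depth under 1. Leaving out 1 library gave 2 to 4, 2 to 5 and 0 to 4 width calls in the same order. The shares of all genes called under the same alternatives are not set beside these counts. The counts therefore cannot show whether calls changed more in the list than elsewhere. Merging turned the Hk1 width difference to -0.058 in CPT1a knockout and -0.079 with acetate. The cause was not tested. Acetate against CPT1a knockout had 0 calls in the list under every alternative run.

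Correlations between the deviations of same-numbered replicates ran from -0.225 to 0.123. By width, replicate 1 had its closest partner under the same number in every comparison. With 3 libraries a group this cannot decide whether the numbers pair the libraries, and the main fits used no pairing. With the replicate number as a block, 1 gene was called by rank in CPT1a knockout (Pfkl) and 1 by width with acetate (Egln1). The 32 genes marked at the promoter in each library were 32 within 500 bp of a start, 31 at a −log10 q of at least 5 and 29 at 50% overlap. With 3 libraries a group and no depth in the files, small differences were not detectable.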
